A study of Mus musculus with 10 samples.

Results

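The potassium channel genes were taken as all genes whose symbol begins with Kcn. They comprised 62 genes of the 12393 genes that had a probe set annotated to 1 symbol alone, and each was represented by its brightest probe set of this kind. Of the 62, 20 had more than 1 such probe set, and the remaining 28 probe sets were read as a check. A mean intensity above 100 over all 10 arrays was reached by 13 genes, and the other 49 lay at or below it. The 49 include Kcne3 and Kcnq5, whose level was not settled. They were counted as written, with means of 9.07 and 8.74, and a level 1000 times higher was not excluded.

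Potassium channels let potassium leave the cell and so end the cardiac action potential. In the rodent ventricle the early, fast phase of repolarisation is carried by the transient outward current, whose channels are built from Kv4 pore subunits and the calcium-binding KChIP subunits. Later phases depend on delayed rectifiers, the resting potential on inward rectifiers and 2-pore background channels, and a further class of inward rectifiers opens when ATP falls. Reduced potassium currents and a longer action potential are a well-known feature of hypertrophied heart muscle.

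The arrays (Affymetrix, 1 colour) measured total RNA of mouse ventricles from alpha-TM180, alpha-TM175 and nontransgenic control (NTG) hearts. The alpha-TM180 group had 4 arrays, the alpha-TM175 group 3 and the NTG group 3, and no treatment was given. Both lines carry transgenes of alpha-tropomyosin, a thin filament protein that governs how myosin reaches actin. The series concerns early stages of mild and severe hypertrophy. From background knowledge of these mice, alpha-TM180 is the more severe and alpha-TM175 the milder model. In each group the array with the highest number held a pool of 20 hearts and every other array held 1 individual extract. Strain, age, sex and the promoter of the transgenes are not given in the sources used here, nor whether a pool contained hearts that were also measured alone, so that the spread between arrays may be partly technical.

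The median intensity of an array was 66.5 to 70.7, and pairs of arrays had a correlation of log2 intensity of 0.964 to 0.995 over probe sets, a description since probe sets are no replicates. Myl2, the ventricular myosin light chain, was bright on all arrays (9757 to 10762). The heart muscle markers Myl3 (9855 to 10993), Mb (11507 to 14268) and Tnnt2 (3415 to 5412) were bright as well. Myh6 and Nppa varied more. The brightest Myh6 probe set counted as settled in level, for the alpha-myosin heavy chain, was read as 9.16 to 952 in alpha-TM180. It was read as 10.4 to 509 in alpha-TM175 and 69.0 to 1623 in NTG arrays. The values 9.16 on alpha-TM180 array 3 and 10.4 on alpha-TM175 array 1 lay between 5 and 20. In that range the digits alone did not settle the level. Both were kept as written by comparison with the other arrays, and a level 1000 times higher was not excluded. No difference between hearts is drawn from these values. Ckm, the muscle creatine kinase gene, differed from NTG by -0.30 on the log2 scale in alpha-TM180 (adjusted p = 0.562) and -0.34 in alpha-TM175 (adjusted p = 0.379). Nppa, the atrial natriuretic peptide gene, rose 10.8-fold in alpha-TM180 (adjusted p = 0.0483 in limma). Summed markers of atrial muscle ran from 164 to 1745 in alpha-TM180, from 182 to 343 in alpha-TM175 and from 163 to 411 in NTG arrays. The high values were those of alpha-TM180 arrays 3 and 4, where Sln, the atrial sarcolipin gene, read 461 and 347, against 32.4 to 65.5 on the other 8 arrays. The atrial marker Bmp10 was not high there, at 44.8 and 50.6 against 43.4 to 57.1 on the other 8 arrays. Summed fibroblast markers ran from 8410 to 12868 in alpha-TM180, from 6639 to 10284 in alpha-TM175 and from 4602 to 6906 in NTG arrays, so that their ranges did not overlap between alpha-TM180 and NTG. In bulk tissue fewer cells of a type and less RNA per cell cannot be told apart, and the part of cell makeup in the results below was not tested. The alpha-TM175 array 1 read 988 for the X-inactivation RNA Xist and 7.23 for the Y-linked Eif2s3y. The other 6 individual arrays read 99.5 to 136 and 44.7 to 60.8. Of the other Y-linked genes measured, Kdm5d read 33.3 on alpha-TM175 array 1, against 45.3 to 64.5 on those 6. Uty read 40.0 on it, inside their range of 37.9 to 50.4. Leaving alpha-TM175 array 1 out left the count of calls among the 13 genes at 0 in each comparison. For Xist the pools read 394 in alpha-TM180, 414 in alpha-TM175 and 149 in NTG. For Eif2s3y they read 35.3, 38.3 and 46.7 in the same order. The part of sex in the differences between pools was not tested.

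The genes above 100 were, from the brightest probe set down, Kcnk3 (mean 507), Kcnh2 (311), Kcnq1 (309), Kcnj8 (263), Kcna7 (218), Kcnd2 (215), Kcna5 (199), Kcnip2 (182), Kcnip3 (140), Kcna2 (135), Kcnh1 (128), Kcne4 (127) and Kcnh3 (127). Just outside the limit lay Kcnmb2 (95.7), Kcnj11 (94.6) and Kcnn4 (93.0). Probe sets differ in how strongly they bind, so that these means order probe sets and not amounts of transcript. By role the genes above 100 were 2 of 6 measured genes of the transient outward current, 5 of 12 delayed rectifier genes and 1 of 13 inward rectifier genes. Of the rest they were 1 of 8 genes of 2-pore channels, 0 of 9 genes of calcium- and sodium-activated channels and 4 of 14 others. Kcne3, a transient outward gene here, and Kcnq5, one of the others, were of unsettled level and were counted as written.

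**Figure D1:**
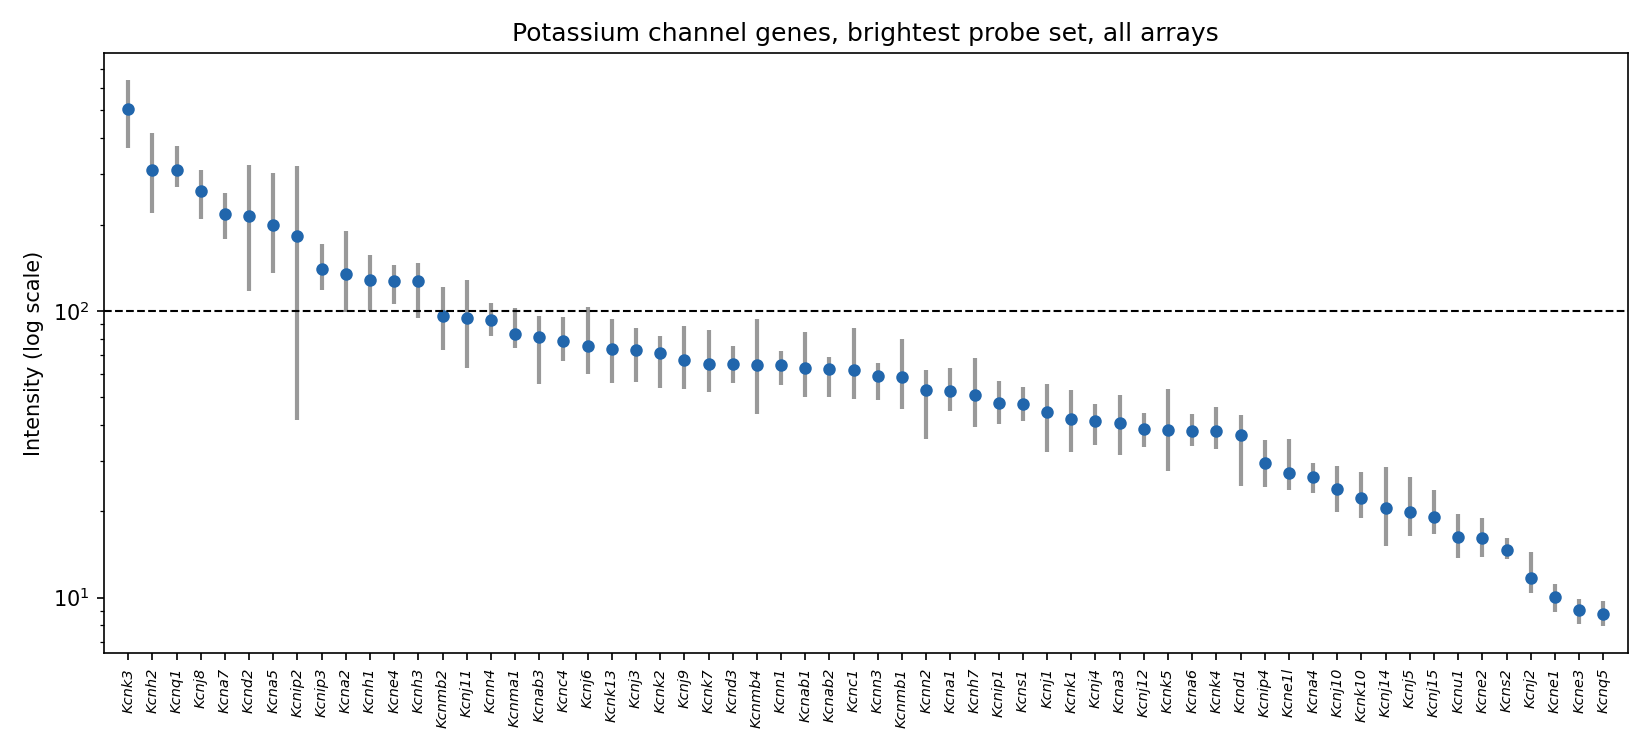
Intensity (vertical axis, log scale) of the brightest probe set of each of the 62 potassium channel genes (horizontal axis). Points are means over the 10 arrays, grey lines run from the lowest to the highest array, and the dashed line marks 100. The 13 genes on the left lie above the line, and the line of Kcnip2 reaches down to 41.6.

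Among the brightest probe sets of the genes above 100, the largest differences from control hearts were in the transient outward channel, in the Kv4.2 pore gene Kcnd2 and the KChIP2 subunit gene Kcnip2. Both were lower on average in both lines, although neither passed the test over all probe sets with its brightest probe set. Kcnd2 was 1.64-fold lower in alpha-TM180 and 1.67-fold lower in alpha-TM175, with all transgenic arrays below all NTG arrays. Kcnip2 differed by a similar or larger factor, with more scatter, much of it from 1 alpha-TM180 heart.

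The promoters of these genes are shown because their brightest probe sets differed most from NTG in both lines. Each window runs from 250 bases before to 50 bases after the annotated start (RefSeq, GRCm38.p6), at chr6:21215096-21215395 on the plus strand for Kcnd2 and at chr19:45816014-45816313 on the minus strand for Kcnip2, and capitals mark the GC box GGGCGG, searched on both strands.
Kcnd2: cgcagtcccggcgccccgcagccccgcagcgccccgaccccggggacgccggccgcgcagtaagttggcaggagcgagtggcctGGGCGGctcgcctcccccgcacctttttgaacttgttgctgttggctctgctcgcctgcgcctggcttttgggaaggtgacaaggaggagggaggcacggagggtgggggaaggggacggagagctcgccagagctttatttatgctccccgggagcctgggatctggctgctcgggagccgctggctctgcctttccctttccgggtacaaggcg
Kcnip2: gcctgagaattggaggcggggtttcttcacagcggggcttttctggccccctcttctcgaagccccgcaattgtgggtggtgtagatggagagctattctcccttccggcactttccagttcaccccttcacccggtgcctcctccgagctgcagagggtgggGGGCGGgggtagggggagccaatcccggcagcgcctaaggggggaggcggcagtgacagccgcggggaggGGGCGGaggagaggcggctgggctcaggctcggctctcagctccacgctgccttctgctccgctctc
GC content was 68.7% in the Kcnd2 window and 67.0% in the Kcnip2 window, against a median of 52.7% over 32851 promoter windows of the same length. The GC box occurred 1 time at Kcnd2 and 2 times at Kcnip2, and 35.7% of all windows hold it on either strand. The core GGAAA, which NFAT factors recognise, occurred 2 times at Kcnd2 and 1 time at Kcnip2, and 61.3% of all windows hold it. TATAAA occurred in neither window and in 13.6% of all windows. The motifs were searched as letters on both strands and do not overlap one another, and a match is no proof of binding.

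The brightest Kcnd2 probe set read 240.0, 117, 223 and 161 on alpha-TM180 arrays 1 to 4, 191, 176 and 159 on alpha-TM175 arrays 1 to 3, and 271, 323 and 287 on NTG arrays 1 to 3. Every array of either line lay below every NTG array. Its mean was 185 ± 56.6 in alpha-TM180 (SD, n = 4), 176 ± 15.9 in alpha-TM175 (SD, n = 3) and 294 ± 26.6 in NTG (SD, n = 3).

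On the log2 scale the Kcnd2 difference between alpha-TM180 and NTG was -0.71 ± 0.21 (SE), which is 0.609-fold (95% interval 0.439 to 0.845), with an adjusted p of 0.233 in limma. Between alpha-TM175 and NTG it was -0.74 ± 0.23, or 0.598-fold (0.422 to 0.848), with an adjusted p of 0.236 in limma. Both intervals lay below 1, but neither difference passed after adjustment over 22626 probe sets. With extract type (pooled or individual) in the model the adjusted p-values were 0.0946 for alpha-TM180 and 0.0947 for alpha-TM175. The pools alone differed from the NTG pool by -0.83 in alpha-TM180 and -0.85 in alpha-TM175, and the individual extracts by -0.68 and -0.69 in the same order, so that the difference was as large within either extract type. Both comparisons share the NTG arrays. Between the lines Kcnd2 differed by 0.03 on the log2 scale (1.02-fold, 0.735 to 1.41).

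The next brightest Kcnd2 probe set (mean 96.4) read 81.0, 56.2, 70.7 and 103 in alpha-TM180, 69.0, 70.7 and 124 in alpha-TM175, and 146, 110 and 134 in NTG arrays. The alpha-TM180 arrays all lay below the NTG arrays, whereas the alpha-TM175 pool lay among them. With extract type in the model this probe set fell in alpha-TM180 by 0.72 ± 0.16 on the log2 scale (adjusted p = 0.042), the 1 of the 90 potassium channel probe sets that passed in any comparison in either model, and 2.01% of all probe sets passed in alpha-TM180 with extract type. In alpha-TM175 its difference was -0.61 (adjusted p = 0.0934). With genotype alone it did not pass in either line (log2 difference -0.76, adjusted p = 0.262 in alpha-TM180, and -0.61, adjusted p = 0.357 in alpha-TM175). The dimmest Kcnd2 probe set (mean 43.2) differed by -0.39 in alpha-TM180 and -0.29 in alpha-TM175 and passed in neither.

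Kcnip2 read 223, 183, 41.6 and 174 on the alpha-TM180 arrays, 117, 195 and 110 on the alpha-TM175 arrays, and 243, 212 and 319 on the NTG arrays. All alpha-TM175 arrays lay below all NTG arrays, while alpha-TM180 array 1 lay inside the NTG range and array 3 far below every other array. Its mean was 155 ± 78.7 in alpha-TM180 (SD, n = 4), 141 ± 46.8 in alpha-TM175 (SD, n = 3) and 258 ± 54.9 in NTG (SD, n = 3).

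The log2 difference of Kcnip2 was -0.96 ± 0.49 (SE) in alpha-TM180, or 0.515-fold (95% interval 0.243 to 1.09), with an adjusted p of 0.622 in limma. Without alpha-TM180 array 3 it was -0.41 (adjusted p = 0.748), so that this 1 heart carried much of the difference. In alpha-TM175 it was -0.90 ± 0.52 (0.534-fold, 0.239 to 1.19, adjusted p = 0.477 in limma), and -1.53 between the pools against -0.59 between individual extracts. A dimmer Kcnip2 probe set (mean 39.8) differed the other way, by 0.13 in alpha-TM180 and 0.34 in alpha-TM175, and passed in neither. The 2 Kcnip2 probe sets therefore disagree in sign.

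The remaining transient outward genes were dim as written, with Kcne3 of unsettled level. Kcnd3, which encodes the Kv4.3 pore, had a mean of 65.1 and differed from NTG by -0.02 in alpha-TM180 and 0.10 in alpha-TM175 on the log2 scale. Kcna4, which encodes Kv1.4, the pore of the slowly recovering transient current, had a mean of 26.4. It read 23.2 to 25.5 in alpha-TM180, 29.1 to 29.4 in alpha-TM175 and 23.6 to 28.9 in NTG arrays, so that alpha-TM175 lay just above both other groups, a difference that did not pass against either.

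**Figure D2:**
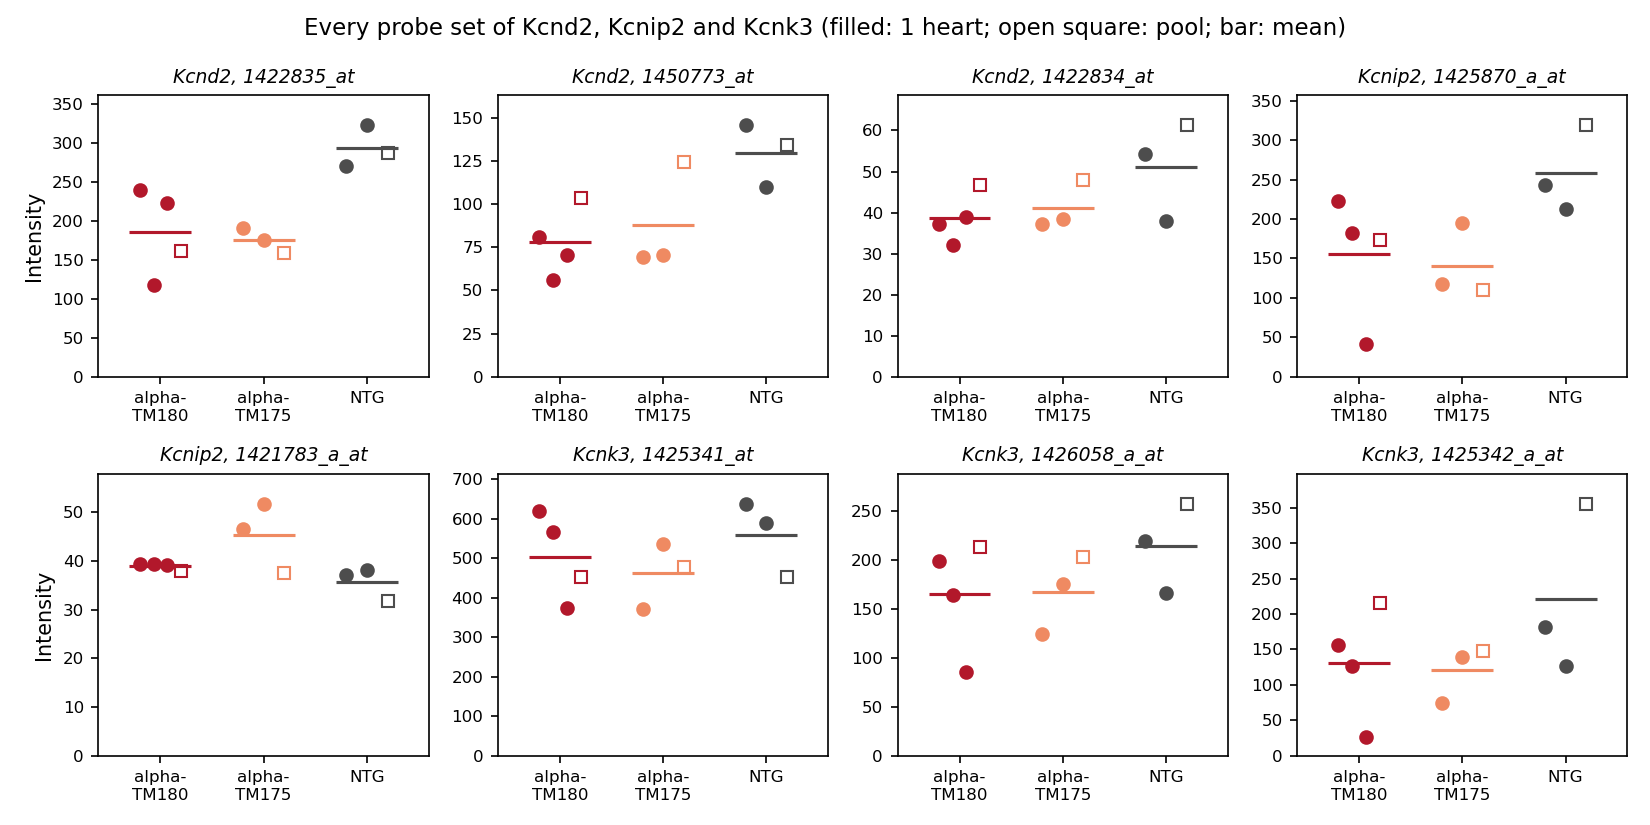
Intensity (vertical axes, from 0) on every array for all probe sets of Kcnd2, Kcnip2 and Kcnk3, with alpha-TM180, alpha-TM175 and NTG from left to right. Filled points are single hearts, open squares are pools of 20 hearts and bars are group means. The 3 Kcnd2 probe sets have lower means in both lines, whereas the Kcnip2 probe sets differ in direction.

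Among the delayed rectifiers Kcnh2, which encodes the ERG channel of the rapid component, was lower in both lines than in NTG, and Kcnq1, the pore of the slow component, differed less. Kcnh2 read 417, 257, 220.2 and 290 on the alpha-TM180 arrays, 253, 234 and 317 on the alpha-TM175 arrays, and 380, 362 and 378 on the NTG arrays. Alpha-TM180 array 1 exceeded all controls, the other 3 alpha-TM180 arrays lay below them, and all alpha-TM175 arrays lay below the narrow NTG range. The log2 difference was -0.38 ± 0.19 (SE) in alpha-TM180 (0.770-fold, 95% interval 0.576 to 1.03, adjusted p = 0.613 in limma) and -0.49 ± 0.20 in alpha-TM175 (0.712-fold, 0.521 to 0.972, adjusted p = 0.352 in limma). Neither passed.

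Kcnq1 read 337, 269.8, 289 and 296 in alpha-TM180, 322, 277 and 277 in alpha-TM175, and 375, 327 and 318 in NTG arrays, and the groups overlapped. Its log2 difference was -0.19 ± 0.11 in alpha-TM180 (adjusted p = 0.685 in limma) and -0.22 ± 0.12 in alpha-TM175 (adjusted p = 0.432). Kcne1, the minK subunit that slows Kcnq1 channels, was close to the bottom of the scale (mean 10.1).

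The Kv1 genes showed no common direction. Kcna5, which encodes Kv1.5 of the ultrarapid current, read 179, 282, 136 and 197 in alpha-TM180, 136, 218 and 302 in alpha-TM175, and 182, 173 and 184 in NTG arrays. Both lines scattered on either side of the controls, and in alpha-TM175 the difference was 0.71 between pools and -0.05 between individual extracts. Kcna7, a Kv1 gene expressed in striated muscle, differed by -0.13 in alpha-TM180 and by -0.25 ± 0.12 in alpha-TM175 (0.843-fold, 0.701 to 1.01, adjusted p = 0.408 in limma). It read 178 to 228 in alpha-TM175 and 206 to 258 in NTG arrays, which overlap. Kcna2, another Kv1 gene, read 112 to 141 in alpha-TM180, 111 to 190 in alpha-TM175 and 99.4 to 166 in NTG arrays.

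Kcnj8 encodes Kir6.1, a pore of ATP-sensitive channels that is prominent in vascular smooth muscle, and was the only inward rectifier gene above 100. It read 311, 261, 252 and 268 in alpha-TM180, 209, 216 and 269.7 in alpha-TM175, and 293, 243 and 304 in NTG arrays. Both alpha-TM175 hearts measured alone lay below all other arrays and the alpha-TM175 pool lay among them. The log2 difference in alpha-TM175 was -0.28 ± 0.13 (0.825-fold, 0.672 to 1.01, adjusted p = 0.406 in limma), against -0.03 in alpha-TM180. Summed smooth muscle markers ran from 1896 to 2910 in alpha-TM180, from 1938 to 2380 in alpha-TM175 and from 1905 to 2187 in NTG arrays, and their part in this result was not tested.

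Kcnj11, the Kir6.2 pore of the ATP-sensitive channel of ventricular muscle, lay just under the limit. It read 128, 96.6, 64.8 and 91.2 in alpha-TM180, 86.0, 92.9 and 63.0 in alpha-TM175, and 99.2, 104 and 120.5 in NTG arrays. All alpha-TM175 arrays were below all NTG arrays (log2 difference -0.43, adjusted p = 0.427), whereas alpha-TM180 overlapped the controls (-0.22, adjusted p = 0.932). Kcnj3, a pore of the acetylcholine-gated channel, was lower on all alpha-TM180 arrays (56.3 to 72.9) than on all NTG arrays (77.6 to 87.3), by 0.34 on the log2 scale with an adjusted p of 0.505. Of the classical ventricular inward rectifiers, Kcnj2 (mean 11.7) and Kcnj12 (38.7) were dim, as was Kcnj5 (19.9), the partner of Kcnj3.

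Kcnk3 encodes TASK-1, an acid-sensitive 2-pore background channel, and had the brightest probe set of all 62 genes. It read 619, 566, 372 and 452 in alpha-TM180, 370.2, 535 and 478 in alpha-TM175, and 637, 588 and 453 in NTG arrays, with wide overlap. Its log2 difference was -0.17 in alpha-TM180 (adjusted p = 0.961) and -0.28 in alpha-TM175 (adjusted p = 0.585). The 2 dimmer Kcnk3 probe sets differed by more, without passing in either line. The one with a mean of 181 read 199, 164, 85.9 and 213 in alpha-TM180, 124, 175 and 204 in alpha-TM175, and 219, 166 and 258 in NTG arrays. Its log2 difference was -0.43 ± 0.30 in alpha-TM180 (adjusted p = 0.811) and -0.36 ± 0.32 in alpha-TM175 (adjusted p = 0.644). The one with a mean of 155 read 157, 126, 26.4 and 216 in alpha-TM180, 74.5, 139 and 148 in alpha-TM175, and 182, 126 and 356 in NTG arrays, and the groups overlapped in both probe sets. Its log2 difference was -0.97 ± 0.63 in alpha-TM180 (adjusted p = 0.779) and -0.80 ± 0.68 in alpha-TM175 (adjusted p = 0.626). Both were lowest on alpha-TM180 array 3, the heart in which Kcnip2 was lowest.

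The other genes above 100 were 2 KCNH genes mainly known from brain, Kcnh1 (the ether-a-go-go channel) and Kcnh3, the KChIP3 gene Kcnip3, which also encodes a calcium-dependent transcriptional repressor, and the accessory subunit gene Kcne4. Kcnh3 read 119.6, 122, 131 and 94.7 in alpha-TM180, 147, 142 and 144 in alpha-TM175, and 116, 131 and 123 in NTG arrays, so that alpha-TM175 lay above both other groups without overlap. Kcnh1 read 117 to 124 in alpha-TM180, 121 to 157 in alpha-TM175 and 100.2 to 156 in NTG arrays. Kcnip3 read 118 to 145 in alpha-TM180, 138 to 172 in alpha-TM175 and 136 to 142 in NTG arrays. Kcne4 read 129 to 135 in alpha-TM180, 108 to 144 in alpha-TM175 and 106 to 133 in NTG arrays, a log2 difference of 0.15 ± 0.11 between alpha-TM180 and NTG (1.11-fold, 0.933 to 1.32, adjusted p = 0.852 in limma). The last 3 genes overlapped between all groups.

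**Figure D3:**
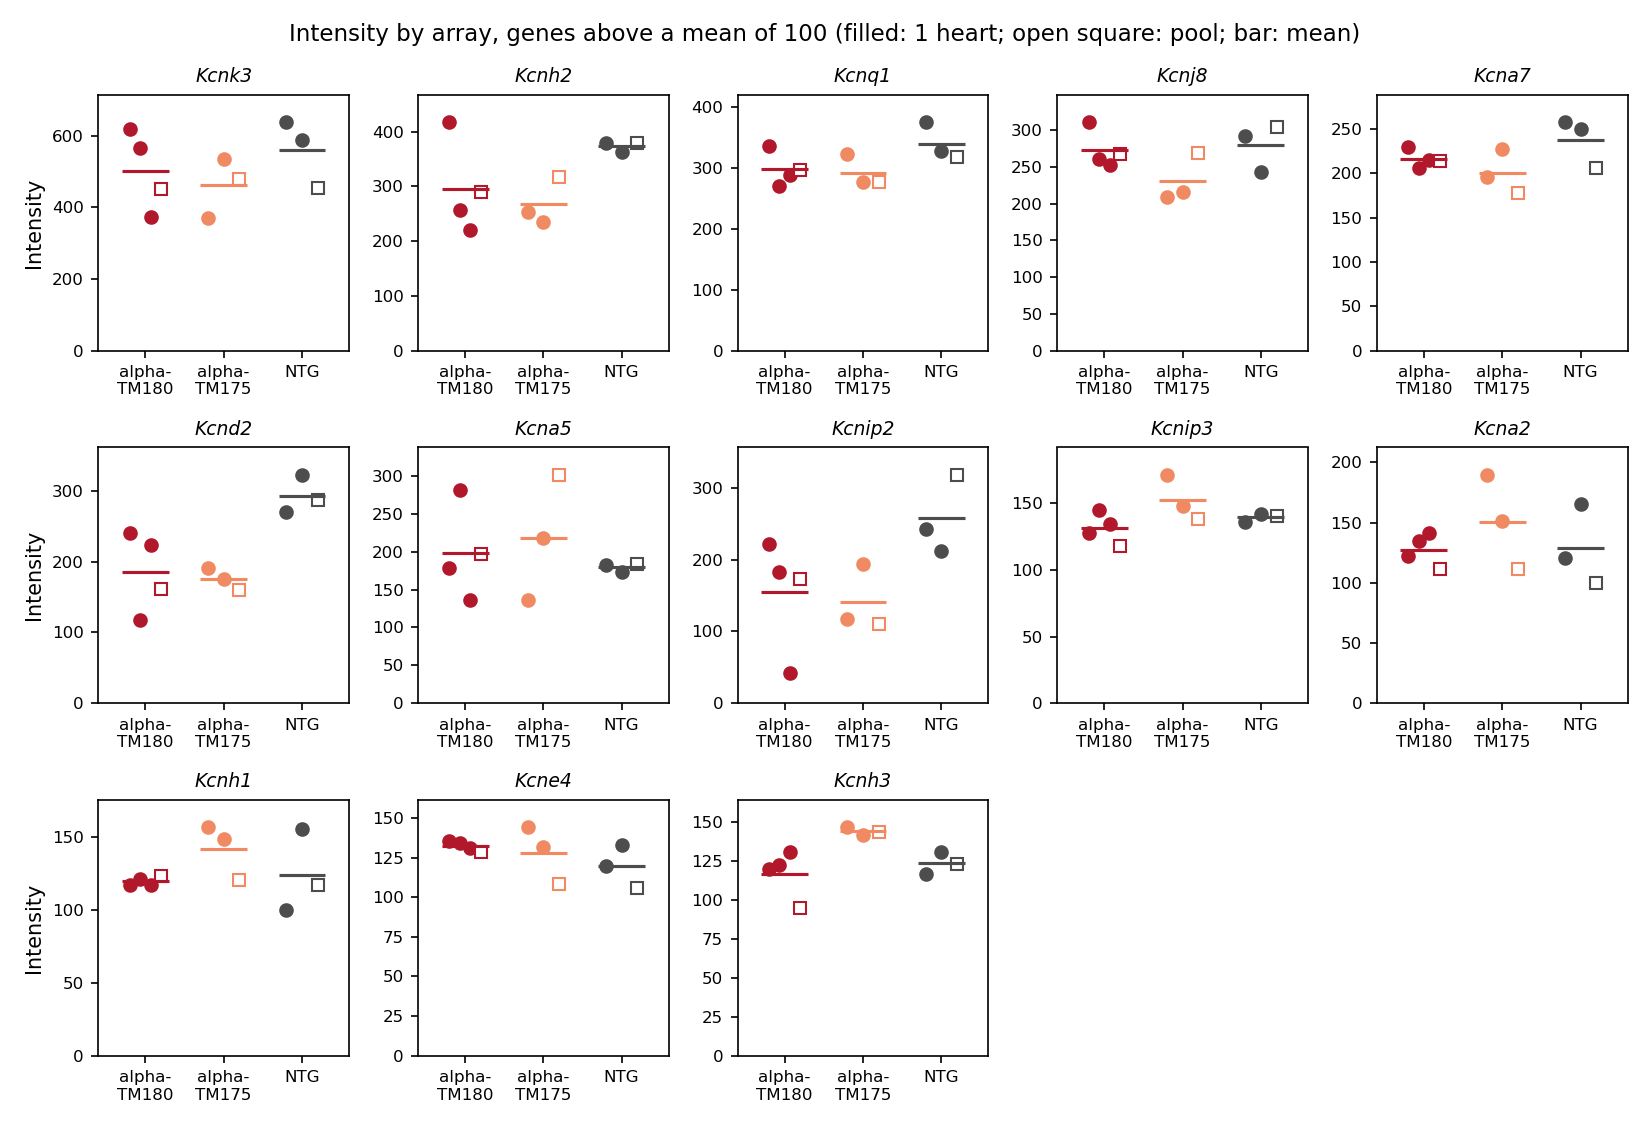
Intensity (vertical axes, from 0) of the 13 genes above 100 on every array, with alpha-TM180, alpha-TM175 and NTG from left to right. Filled points are single hearts, open squares are pools of 20 hearts and bars are group means. Kcnd2 is the gene whose arrays of either line all lie below the NTG arrays, and the lowest Kcnip2 point, 41.6, is alpha-TM180 array 3.

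The comparison of the severe line with controls gave 0 of 13 calls at an adjusted p under 0.05 in limma, where 0.504% of all probe sets passed. With extract type in the model it gave 0 of 13 as well, where 2.01% of all probe sets passed. At an unadjusted p under 0.05 there was 1 gene, Kcnd2, where 9.34% of all probe sets reached this level. Kcnd2 was also the 1 gene of 13 whose alpha-TM180 arrays all lay below the NTG arrays, as did 4.19% of all probe sets, and 0 of 13 lay entirely above (5.98%). Among all 5872 genes above 100, 342 lay below without overlap and 566 above. Of these 5872, 371 lower and 531 higher genes had an unadjusted p under 0.05 in limma. The difference was below 0 for 10 of the 13, with a median of -0.09 on the log2 scale, against 46.2% below 0 and a median of 0.02 among all 5872 genes above 100.

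In the milder line against controls, 0 of 13 genes passed in limma, where 0.00884% of all probe sets did, and 0 of 13 with extract type, where 0.862% did. Kcnd2 and Kcnh2, 2 of 13, had an unadjusted p under 0.05, as did 13% of all probe sets. Kcnd2, Kcnh2 and Kcnip2, 3 of 13, lay below all NTG arrays without overlap (8.11% of all probe sets), and Kcnh3, 1 of 13, lay above (8.42%). Among all 5872 genes above 100, 914 lay below without overlap and 378 above. Of these 5872, 836 lower and 245 higher genes had an unadjusted p under 0.05 in limma. The difference was below 0 for 7 of the 13, and the median was -0.22. Among all genes above 100 60.3% were below 0, with a median of -0.06.

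Between the lines 0 of 13 genes passed in limma, as did 0% of all probe sets, and 0 of 13 passed with extract type (0.0265%). Kcnh3 was the 1 gene with an unadjusted p under 0.05 (13.3% of all probe sets) and the 1 gene lower in alpha-TM180 without overlap (7.37%), with 0 higher (6.22%). Among all 5872 genes above 100, 178 lay lower without overlap and 706 higher. Of these 5872, 152 lower and 752 higher genes had an unadjusted p under 0.05 in limma. The Kcnh3 difference was -0.31 ± 0.11 on the log2 scale (0.806-fold, 0.678 to 0.957, adjusted p = 0.33 in limma). The next smallest p-values belonged to Kcnip3 (log2 difference -0.21 ± 0.10, adjusted p = 0.396), Kcnj8 (0.24 ± 0.13, adjusted p = 0.411), Kcnh1 (-0.24 ± 0.15, adjusted p = 0.469) and Kcna2 (-0.21 ± 0.20, adjusted p = 0.617). Kcnip3, Kcnh1, Kcna2 and Kcnh3 had lower, and Kcnj8 higher, mean log2 intensity in alpha-TM180 than in alpha-TM175, and the intervals of all but Kcnh3 included no difference.

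**Figure D4:**
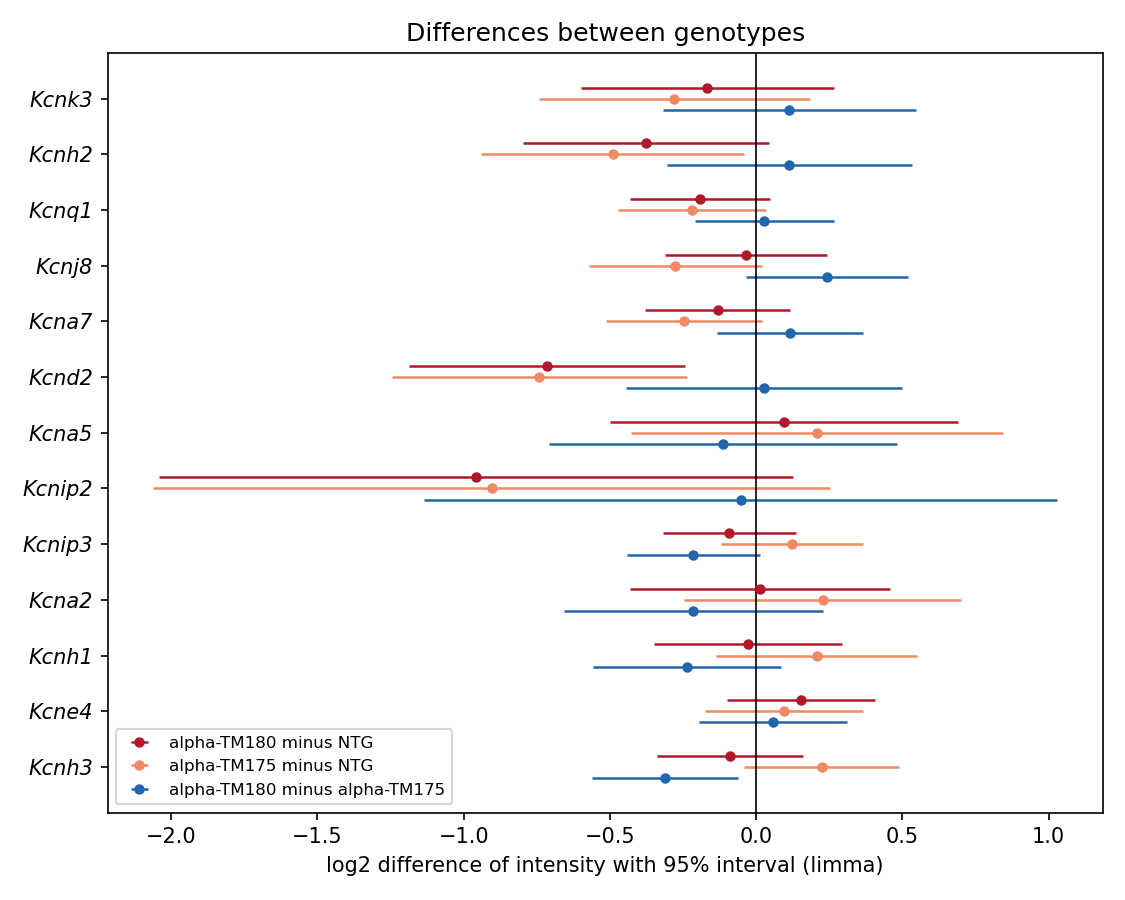
Log2 difference of intensity (horizontal axis) for the 13 genes above 100, with 95% intervals from limma, for alpha-TM180 minus NTG, alpha-TM175 minus NTG and alpha-TM180 minus alpha-TM175. The Kcnd2 intervals of both lines against NTG lie below 0, as does that of Kcnh2 in alpha-TM175 and that of Kcnh3 between the lines. None passed after adjustment over all probe sets.

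Of the 49 genes at or below 100, 0 passed in any comparison in limma in either model. With genotype alone 0.504% of all probe sets passed in alpha-TM180 against NTG, 0.00884% in alpha-TM175 against NTG and 0% between the lines. With extract type these shares were 2.01%, 0.862% and 0.0265%. At an unadjusted p under 0.05 there were 2 of 49 in alpha-TM180 against NTG (9.34% of all probe sets), 5 of 49 in alpha-TM175 against NTG (13%) and 6 of 49 between the lines (13.3%). Without overlap, 2 of 49 lay higher and 1 (Kcnj3) lower in alpha-TM180 against NTG (5.98% and 4.19% of all probe sets). In alpha-TM175 against NTG 5 lay higher, among them Kcna4, and 1 (Kcnj11) lower (8.42% and 8.11%). Between the lines 0 lay higher and 5 lower in alpha-TM180 (6.22% and 7.37%). The Kir2.4 gene Kcnj14, with a mean of 20.5, was higher without overlap in both lines. It read 18.9 to 28.6 in alpha-TM180, 20.5 to 22.9 in alpha-TM175 and 15.1 to 18.7 in NTG arrays. Kcnab1, which encodes a cytoplasmic beta subunit of Kv1 channels, differed by -0.45 between alpha-TM180 and alpha-TM175 (adjusted p = 0.305). Both were singled out after their values were seen.

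In alpha-TM175 against NTG 9 of these 49 genes were below 0, with a median of 0.13, while all 6521 genes at or below 100 had 24.7% below 0 and a median of 0.11. Between the lines 43 of 49 were below 0, with a median of -0.15, against 74.3% and -0.11 over all such genes. In alpha-TM180 against NTG 31 of 49 were below 0, with a median of -0.03, against 51.9% and -0.01. The shares below 0 among the dim potassium channel genes were thus 63.3% in alpha-TM180 against NTG, 18.4% in alpha-TM175 against NTG and 87.8% between the lines, and their distance from the shares over all dim genes was not tested.

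**Figure D5:**
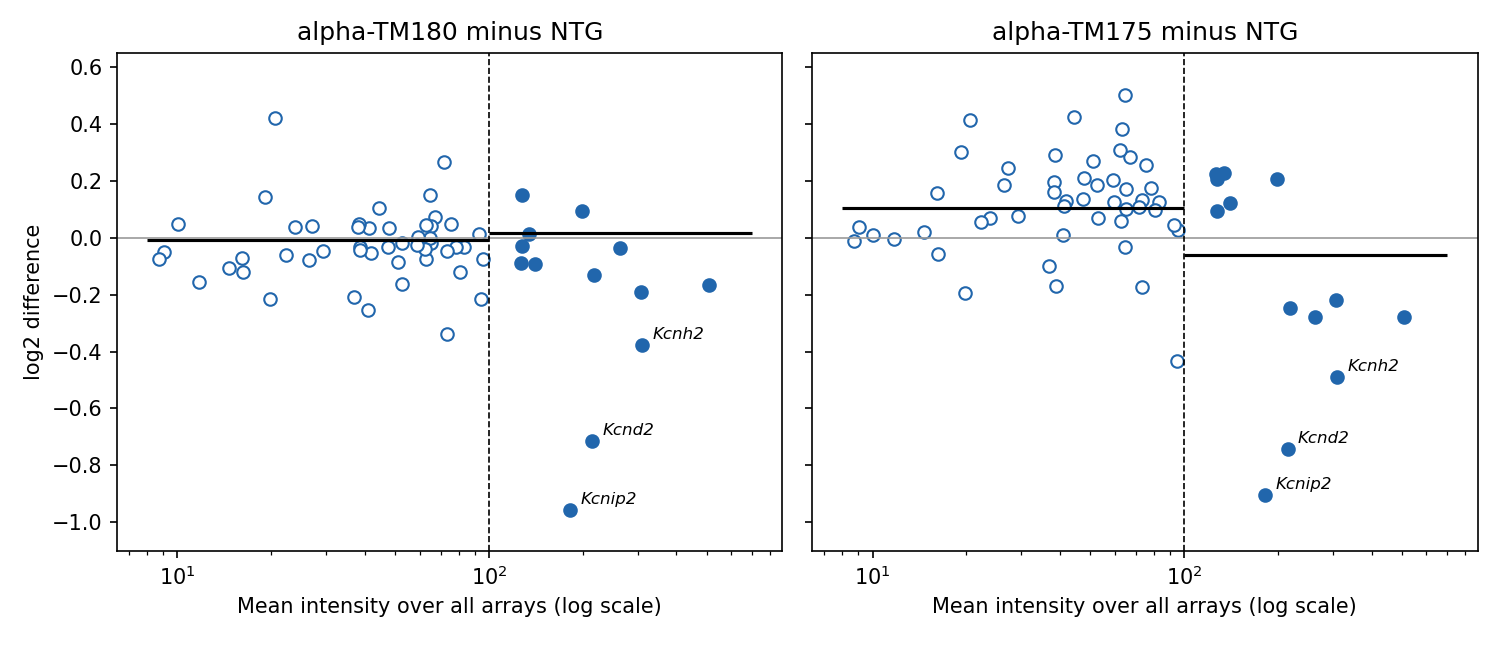
Log2 difference from NTG (vertical axis) against mean intensity over all arrays (horizontal axis, log scale) for the 62 potassium channel genes in alpha-TM180 (left) and alpha-TM175 (right). Filled points are genes above 100 (dashed line), and black bars are the medians of all genes at or below and above 100. Kcnip2, Kcnd2 and Kcnh2 have the lowest differences among genes above 100 in both panels, and most dim genes in alpha-TM175 lie above 0.

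Genes that work with potassium channels were read beside them. Of 16 listed channel partners 13 were measured, and with genotype alone 0 passed in alpha-TM180 (0.504% of all probe sets) or in alpha-TM175 (0.00884%). With extract type in the model 1 of 13 passed in alpha-TM180 (2.01% of all probe sets) and 0 of 13 in alpha-TM175 (0.862%). Abcc9, the SUR2 subunit that joins Kcnj8 and Kcnj11 pores in ATP-sensitive channels, fell in alpha-TM180 by 0.65 ± 0.14 on the log2 scale (adjusted p = 0.0399). It read 485, 323, 400.2 and 499.5 in alpha-TM180, 426, 318 and 549.8 in alpha-TM175, and 626, 562 and 883 in NTG arrays, with every array of either line below every NTG array. In alpha-TM175 the difference was -0.69 (adjusted p = 0.0522). The median over the 13 was -0.13 in alpha-TM180 and -0.14 in alpha-TM175.

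Of 27 other ion channels and pumps of the action potential 16 were measured, and 0 passed with genotype alone, where 0.504% of all probe sets passed in alpha-TM180 and 0.00884% in alpha-TM175. With extract type in the model 1 of 16 passed in alpha-TM180 (2.01% of all probe sets) and 1 of 16 in alpha-TM175 (0.862%), in both lines Cacnb2, the beta subunit that brings L-type calcium channels to the membrane. It fell by 0.71 ± 0.16 in alpha-TM180 (adjusted p = 0.0473) and by 0.92 ± 0.17 in alpha-TM175 (adjusted p = 0.0427). Its arrays read 54.1, 46.9, 42.0 and 82.4 in alpha-TM180, 43.0, 49.2 and 56.3 in alpha-TM175, and 76.7, 63.5 and 166 in NTG. The alpha-TM180 pool overlapped the NTG hearts measured alone, and the medians of the list were -0.05 in alpha-TM180 and -0.03 in alpha-TM175.

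Of the 64 control probe sets only the 5' set of Gapdh and the middle set of Actb are given here. The Gapdh set read 5164, 5509, 4322 and 5447 in alpha-TM180, 4151, 5360 and 4596 in alpha-TM175, and 5589, 5533 and 6328 in NTG arrays. All transgenic arrays lay below all NTG arrays, by a narrow margin (5509 against 5533). Of all probe sets 4.19% lay below NTG in this way in alpha-TM180 and 8.11% in alpha-TM175. The lowest readings, alpha-TM175 array 1 and alpha-TM180 array 3, included the heart with the lowest Kcnip2. Its part in the lower Kcnd2, Kcnip2 and Kcnh2 readings was not tested. The middle control probe set of Actb moved with extract type, at 2623 to 2969 in the 3 pools and 217 to 367 in the 7 individual extracts. Its part in the calls made with extract type in the model, those of Kcnd2, Abcc9 and Cacnb2, was not tested.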

How the data were processed

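Total RNA from ventricles was labelled as biotinylated cRNA, per the labels' protocols, and measured on 10 arrays. The authors deposited linear intensities per probe set, made with RMA per the submitters' processing notes; its version is not given in the sources used here. Values of 1000 or more carried a point before the last 3 digits. This mark was undone from the digits and the other arrays of the probe set (7614 of 226900 values). The level of 699 probe sets, among them Kcne3 and Kcnq5, could not be settled, and they were kept as written. Log2 of the deposited intensities was fitted with limma 3.58.1 in R 4.3.3, with 1 mean per genotype over all 10 arrays, for 22626 probe sets after 64 controls were set aside. Tests were two-sided, with Benjamini-Hochberg adjustment over all these probe sets, and an adjusted p under 0.05 was called. A second model added extract type, and its fits without alpha-TM175 array 1 were chosen after seeing the data. Of the probe sets 20380 carried 1 symbol, 691 several and 1555 none. The fits were tested on simulated data. The number of arrays limits the precision.

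All genes above 100 were named, with the test printed for calls or otherwise for the 5 smallest p-values, and a set of cardiac channel genes was always described. Members and lists were chosen with earlier results of these data known. Alternatives are given in the closing section. The replicate numbers were not used to pair the arrays in the main fit. In deviations from group means, 6 of 9 same-numbered pairs of arrays correlated above 0.1. Same-numbered pairs ran from -0.53 to 0.71 and other pairs from -0.72 to 0.81. By extract type, pairs of a pool and an individual extract ran from -0.72 to -0.03. Pairs of pools ran from 0.71 to 0.81 and pairs of individual extracts from -0.11 to 0.66. The values thus went with extract type, and they do not decide whether the numbers pair the arrays.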

Additional observations from a re-analysis of the deposited data

Results flagged for a closer look

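Kcnip2 in alpha-TM180 array 3 stood apart from the other arrays of its group. It read 41.6, and the nearest alpha-TM180 array read 174. The gap was 0.851 of the group's range on the log2 scale, above Dixon's 95% critical value for 4 arrays. The test was made for 21 genes in the alpha-TM180 group, the only group with enough arrays, and chance flags about 1 in 20. The same array had the lowest readings of 2 further Kcnk3 probe sets and a high reading of atrial Sln (461), and the part of these in the Kcnip2 value was not tested.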

How the results depend on the processing

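The number of calls among the genes above 100 was 0 in each comparison and stayed at 0 in 22 of 22 alternatives for alpha-TM180 against NTG and in 21 of 22 for each of the other comparisons. The exception was array weights, which gave 5 calls in alpha-TM175 against NTG (Kcnh2, Kcnq1 and Kcnj8 lower, Kcnh1 and Kcnh3 higher), where 5361 probe sets were called, and 1 between the lines (Kcnj8, log2 difference 0.37, adjusted p = 0.0388). Those weights ran from 0.309 for the alpha-TM175 pool to 3.24 for alpha-TM175 array 2; the cause was not tested. The 15 gene results with the 5 smallest p-values of each comparison kept their direction in all 330 alternative values. Other printed results, such as those of Kcnip2 in alpha-TM175 and of Kcnk3, were not among these 15. Leaving out 1 array moved Kcnd2 between -0.86 and -0.51 in alpha-TM180 and between -0.81 and -0.67 in alpha-TM175, and Kcnip2 in alpha-TM180 between -1.21 and -0.41. With the replicate number as a block 0 genes were called, and Kcnd2 differed by -0.67 in alpha-TM180 (adjusted p = 0.383) and -0.74 in alpha-TM175. Number 4 occurred only in alpha-TM180, so that its pool did not enter the alpha-TM180 difference of this fit. Number 3 was an individual extract in alpha-TM180 and a pool in the other groups, so that this fit mixed extract types. The number of genes above the limit was 13, or 36 for a mean above 50 and 6 for a mean above 200, by construction of the limit, and 10 for genes above 100 on every array. Kcne3 and Kcnq5, of unsettled level, were counted as written and so lay below the limit in each of these counts. With 3 or 4 arrays a group, a missed threshold does not show that a gene did not differ.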
